A study of Mus musculus with 16 samples.

Results

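The genes described here encode the nuclear subunits of mitochondrial respiratory complexes II to V, with cytochrome c. They were taken from the deposited tables by name: the 4 succinate dehydrogenase genes Sdha to Sdhd, all symbols starting with Uqcr or Atp5, Cyc1, Cycs, and the Cox4 to Cox8 families. Of 55 matching symbols, 6 pseudogene symbols were left out, and 2 genes, Cox7b2 and Cox8c, did not reach a mean of 1 TPM in either tissue. That left 47 genes among 33641 gene symbols: 4 of complex II, 9 of complex III, cytochrome c, 16 of complex IV and 17 filed under complex V. Atp5s and Atp5sl match by name but are older names of Dmac2l and Dmac2, which are not counted among the core subunits of ATP synthase.

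Total RNA came from frozen pieces of 2 organs of C57BL/6J mice aged 28 weeks, the left ventricle (called heart here) and subcutaneous white fat (scWAT). The mice were wild-type or labelled Adipo-HuR KO, a loss of HuR meant for adipocytes alone. HuR is the RNA-binding protein encoded by Elavl1. The scWAT groups were 5 wild-type mice (A5, A7, A8, A12, A14) and 3 labelled knockout (A24, A26, A30). The heart groups were 4 wild-type mice (A5, A7, A8, A14) and 4 labelled knockout (A25, A29, A30, A31), so 5 of the 11 mice gave both tissues. The labels give no treatment, no Cre driver and no floxed-allele detail, and within a group each library is from its own mouse. Values are TPM, which are scaled per transcript length and to the same total in every library, so that the depth behind each value is unknown.

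Complex II, succinate dehydrogenase, passes electrons from the citric acid cycle to ubiquinone, complex III passes them on to cytochrome c, and complex IV, cytochrome c oxidase, passes them to oxygen. Complex V, ATP synthase, uses the proton gradient that complexes III and IV help to build. Several small subunits of complex IV exist as a pair of genes, one of them used mainly in heart and skeletal muscle (Cox6a2, Cox7a1, Cox8b) and the other in most tissues (Cox6a1, Cox7a2, Cox8a). Cox7a1 and Cox8b are also known as genes of brown and beige adipocytes.

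Some features of the libraries bear on every value below. Elavl1 in scWAT was no lower under the knockout label, at 36.2 to 42.9 TPM against 19.0 to 34.5 TPM in wild-type scWAT, so that groups are named by their labels. White adipocyte markers summed to between 38392 and 57116 TPM in scWAT and to at most 1994 TPM in heart, and cardiac markers to between 18569 and 34771 TPM in heart and to at most 117 TPM in scWAT. Heart A29, labelled knockout, had fibroblast markers (Pdgfra, Dcn, Col1a1, Col3a1 and Lum) summing to 226 TPM, within the wild-type range of 188 to 278 TPM, whereas A25, A30 and A31 summed to 1182, 2224 and 1529 TPM. Skeletal muscle markers summed to 5393 TPM in scWAT A24 and to 10739 TPM in A30, against 406 TPM in A26 and 58.8 to 1141 TPM in wild-type scWAT. B cell and T cell markers summed to 491 and 303 TPM in scWAT A26, and the other scWAT libraries reached 22.0 and 10.2 TPM at most. Fibroblast markers summed to 702 TPM in scWAT A26 and to at least 1739 TPM in the other scWAT libraries. The heart genotype results below are given with and without A29. Mitochondrially encoded transcripts held 51.9% to 60.6% of the TPM of wild-type heart and 6.14% to 14.4% of wild-type scWAT, so the members are also given as a share of nuclear TPM. In whole tissue, fewer cells of a type and less RNA per cell cannot be told apart.

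The 47 genes together held 2.20% ± 0.191 (SD, n = 5) of nuclear TPM in wild-type scWAT and, with the knockout label, 2.23% ± 0.0433 (n = 3). In wild-type heart they held 7.09% ± 0.166 (n = 4), with single libraries between 6.94% and 7.31%. In the hearts labelled knockout the share was 5.82% in A25, 5.28% in A30 and 5.75% in A31, all below the wild-type range. Heart A29 stood above that range at 8.13%. The denominator matters here: as a share of all TPM, A25, A30 and A31 held 3.13%, 2.98% and 2.94%, inside the wild-type range of 2.73% to 3.52%. Mitochondrially encoded transcripts held 46.2%, 43.4% and 48.9% of TPM in these 3 hearts, below the wild-type range, and 55.7% in A29. Complex V genes made up 3.06% and complex IV genes 2.47% of nuclear TPM in wild-type heart, against 0.875% and 0.803% in wild-type scWAT. Complex III genes held 1.22% and complex II genes 0.322% in wild-type heart, and 0.411% and 0.104% in wild-type scWAT.

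The question put to the wild-type libraries was which form of each complex IV pair the tissues used. Cox6a2, the muscle form of subunit 6A, measured 1093, 1357, 1583 and 1273 TPM in the wild-type hearts of A5, A7, A8 and A14. In wild-type scWAT it stood at 1.61, 5.72, 1.44, 1.07 and 1.85 TPM in A5, A7, A8, A12 and A14. Its counterpart Cox6a1 ran the other way, at 66.7, 87.4, 111 and 88.9 TPM in heart and 1036, 797, 847, 896 and 1188 TPM in scWAT. The 2 tissues did not overlap in either gene, and Cox6a2 made up 93.8% ± 0.391 (SD, n = 4) of the summed TPM of the pair in wild-type heart and 0.263% ± 0.252 (n = 5) in wild-type scWAT.

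Subunit 8 followed the same pattern less completely. Cox8b, the muscle form, stood at 809, 994, 1183 and 1002 TPM in wild-type heart and at 139.8, 216, 108, 92.9 and 474 TPM in wild-type scWAT. Cox8a stood at 111, 164, 183 and 159 TPM in heart and at 1352, 1061, 1115, 1298 and 1465 TPM in scWAT. The groups did not overlap for either gene, although scWAT A14 stood well above the other wild-type scWAT libraries in Cox8b. Cox8b was 86.7% ± 0.906 (n = 4) of the pair in heart and 13.3% ± 7.36 (n = 5) in scWAT.

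Subunit 7A differed from these: as deposited, only the muscle form passed the test between the tissues. Cox7a1 stood at 1146, 1217, 1342 and 1424 TPM in wild-type heart and at 65.6, 54.7, 14.7, 31.4 and 41.2 TPM in wild-type scWAT. Cox7a2 stood at 363, 424, 428 and 384 TPM in heart and at 418, 388, 377, 396 and 454 TPM in scWAT, so that the tissues overlapped (log2 difference -0.03 as deposited and 1.43 after the median-of-ratios scaling described below). Cox7a1 was 76.2% ± 1.91 (n = 4) of the pair in heart and 9.07% ± 3.97 (n = 5) in scWAT.

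On the scale of log2 ratios (muscle form over general form, each as TPM + 1), wild-type heart lay above wild-type scWAT by 12.19 for Cox6a2/Cox6a1, 5.10 for Cox7a1/Cox7a2 and 5.56 for Cox8b/Cox8a. In an exact 2-sided permutation test of each ratio, p was 0.00794, the smallest that 5 against 4 libraries allow, and 0.0132 after Benjamini-Hochberg adjustment over 5 pairs. With the 4 mice that gave both tissues taken as pairs, the exact sign-flip test cannot go below 0.125, and its adjusted p was 0.156 for each of these 3 ratios. A ratio within a library does not depend on how that library is scaled, beyond the effect of the pseudocount. The Cox4i2/Cox4i1 ratio, of the oxygen-responsive form over the general form of subunit 4, differed by -0.01 between the tissues (exact permutation p = 0.960). Cox4i2 was low in both, at 6.51 to 12.8 TPM in wild-type scWAT and 7.31 to 13.3 TPM in wild-type heart, against at least 936 TPM of Cox4i1. Cox6b2, the form of subunit 6B known from testis, was at 1.53 to 4.63 TPM in wild-type scWAT and 0.479 to 2.19 TPM in wild-type heart, where Cox6b1 stood at 748 TPM or more. The Cox6b2/Cox6b1 ratio differed by -0.82, heart being lower (exact permutation p = 0.0317, adjusted p = 0.0397), a call that held without scWAT A12 and was lost without any other single library (adjusted p 0.067 to 0.112). Its size depended on the pseudocount, at -1.15 with 0.25 and -0.31 with 5.

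**Figure D1:**
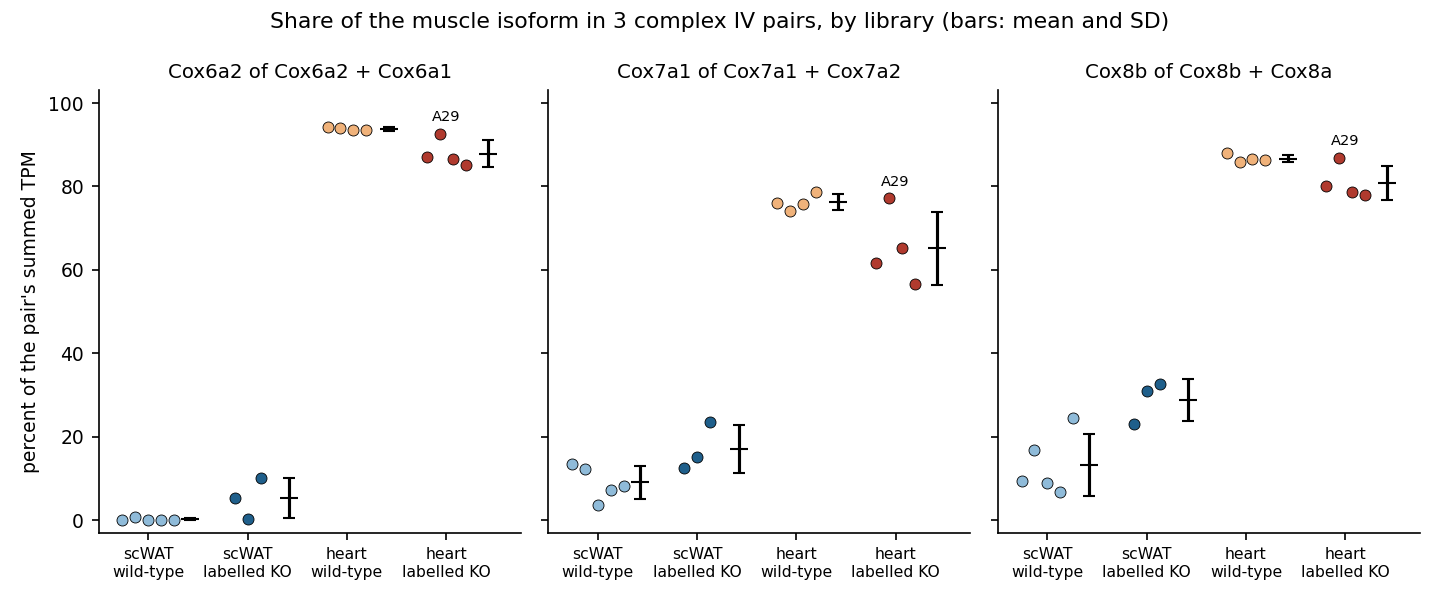
Percent of the pair's summed TPM taken by the muscle isoform (vertical axis) in each library, for Cox6a2 with Cox6a1, Cox7a1 with Cox7a2 and Cox8b with Cox8a, by tissue and labelled genotype (points are mice, bars the mean and SD). The 4 wild-type hearts lie close together in each panel, and of the hearts labelled knockout A29 lies highest, at 92.6%, 77.2% and 86.9%.

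Promoter sequences are shown for the genes of the 3 muscle pairs that the table holds, so that both forms of a subunit can be compared; they were chosen with their base composition known. RefSeq promoter windows of 300 bases (250 before and 50 after the annotated start, build GRCm38.p6) were found for 37 of the 47 genes, with 41 windows in all. The 150 bases before the start are printed 5′ to 3′ for both members of the 7A and 8 pairs and for Cox6a1, with each CG dinucleotide in capitals. Cox7a1 lies on the plus strand at chr7:30184021-30184170, and the others on the minus strand, Cox7a2 at chr9:79759854-79760003, Cox8b at chr7:140900447-140900596, Cox8a at chr19:7217617-7217766 and Cox6a1 at chr5:115348959-115349108.
Cox7a1: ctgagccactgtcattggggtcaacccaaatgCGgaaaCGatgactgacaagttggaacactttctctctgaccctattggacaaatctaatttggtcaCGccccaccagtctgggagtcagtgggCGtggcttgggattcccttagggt
Cox7a2: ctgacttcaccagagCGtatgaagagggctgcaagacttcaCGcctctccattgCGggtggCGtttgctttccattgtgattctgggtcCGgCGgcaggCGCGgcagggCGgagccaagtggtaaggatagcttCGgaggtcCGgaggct
Cox8b: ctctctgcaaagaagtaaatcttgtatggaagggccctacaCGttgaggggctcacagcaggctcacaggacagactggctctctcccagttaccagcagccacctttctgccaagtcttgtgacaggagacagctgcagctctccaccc
Cox8a: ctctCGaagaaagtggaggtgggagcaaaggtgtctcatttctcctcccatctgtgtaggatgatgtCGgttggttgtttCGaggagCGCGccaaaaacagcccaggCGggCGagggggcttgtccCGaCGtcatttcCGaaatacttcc
Cox6a1: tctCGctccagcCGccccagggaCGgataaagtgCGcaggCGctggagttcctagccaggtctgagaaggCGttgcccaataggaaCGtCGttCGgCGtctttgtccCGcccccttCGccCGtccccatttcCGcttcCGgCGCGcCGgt
The muscle forms Cox7a1 and Cox8b held 7 and 2 CG dinucleotides in their 300 bases. The general forms Cox7a2, Cox8a and Cox6a1 held 20, 19 and 32. The median was 19 over the 41 windows of members and 7 over all 32851 windows of the table, and Cox8b had the fewest of the members. Atp5g1, which differed strongly between the tissues, held 16, and Cox7b, which has no muscle form among the members, held 5. A short core of the NRF1 type, TGCGCATGC on either strand, was present in the windows of 3 of the 37 genes (Atp5g2, Atp5l and Uqcrc1) and in 1.52% of all windows. TCAAGGTCA, of the type bound by estrogen-related receptors, was present in 2 of the 37 (Atp5g3 and Sdhd) and in 0.423% of all windows. These counts are per gene and the shares per window. TGCGCATGC also contains a CG, and member windows held more of them, so its share of all windows is no matched background.

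Beyond the pairs, most subunit genes were higher in wild-type heart than in wild-type scWAT. With TPM as deposited, 30 of the 47 genes were higher and 3 lower in heart at an adjusted p under 0.05 (limma on log2(TPM + 1), Benjamini-Hochberg over 13093 genes), where 8.12% of all tested genes were higher and 78.5% lower. The median log2 difference was 0.61 over the members and -1.27 over all genes, and 45 of the 47 members lay above the median of all genes. After median-of-ratios scaling, which sets the 2 tissues to a common median, 44 members were higher and 2 lower, where 33.1% of all genes were higher and 34.2% lower. The 2 lower under both scalings were Cox6a1 (log2 difference -3.42, SE 0.18, limma adjusted p = 3.23e-09, as deposited) and Cox8a (-3.03, SE 0.17, adjusted p = 7.42e-09). Cox6b2 differed by -0.91 as deposited, heart being lower (SE 0.29, limma adjusted p = 0.0108) and stood at 0.03 after that scaling. Cox7a2l stood at 194.7, 207, 265, 205 and 251 TPM in scWAT and 169.8, 189, 209 and 184 TPM in heart. Its log2 difference was -0.25 as deposited (limma adjusted p = 0.127) and 1.21 after median-of-ratios scaling.

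**Figure D2:**
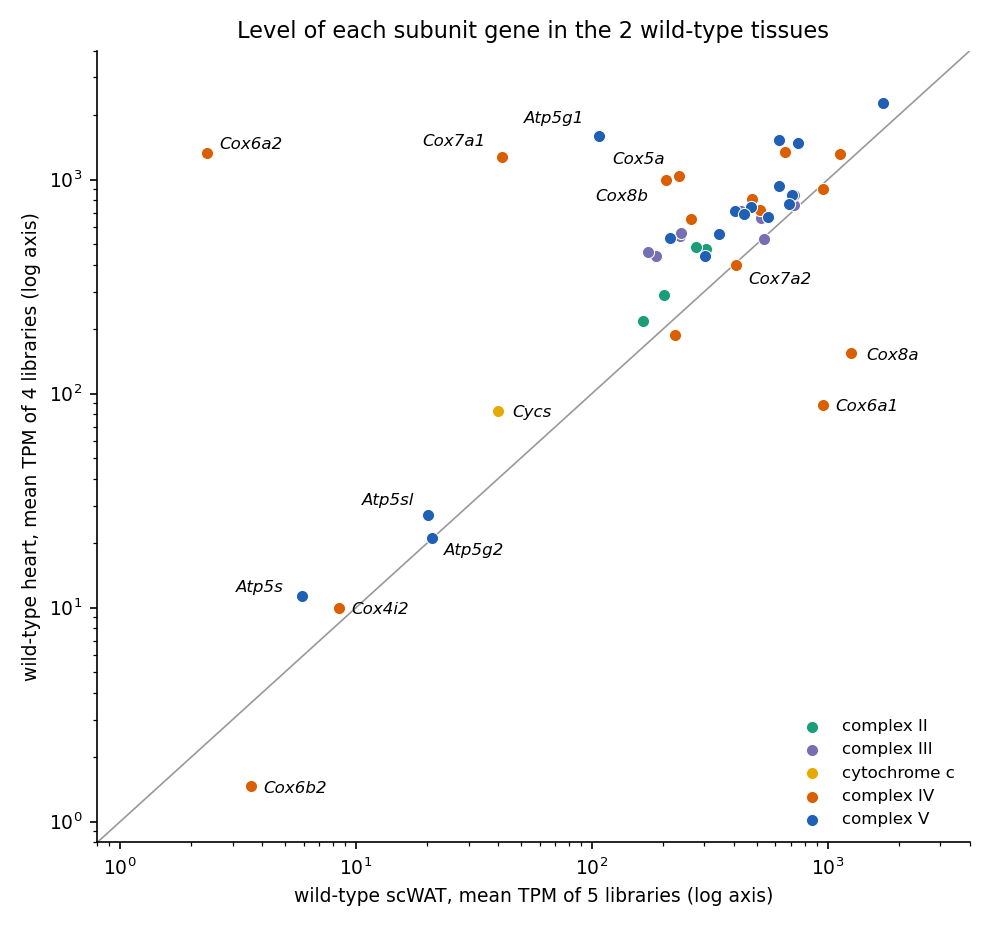
Mean TPM of each of the 47 genes in wild-type scWAT (horizontal, 5 libraries, log axis) against wild-type heart (vertical, 4 libraries, log axis), coloured by complex, with the line of equal levels. Cox6a2, Cox7a1 and Atp5g1 lie far above the line and Cox6a1 and Cox8a far below it.

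In complex V, all 17 genes had a positive difference and 12 passed the test as deposited. The gene that differed most was Atp5g1, 1 of the genes for subunit c, the ring that turns in the membrane. Atp5g1 stood at 1528, 1620.1, 1732 and 1539.7 TPM in wild-type heart and at 133, 106, 97.3, 82.0 and 118 TPM in wild-type scWAT, with no overlap (log2 difference 3.91, SE 0.16, limma adjusted p = 3.18e-10). Atp5g1, Atp5g2 and Atp5g3 encode the same mature protein behind different import sequences, and they differed unequally. Atp5g3 stood at 1256, 1534, 1612 and 1518 TPM in heart and at 909, 775, 574, 716 and 776 TPM in scWAT. Atp5g2 was low in both, at 16.1, 18.6, 30.3 and 19.4 TPM in heart and 25.03, 24.3, 17.0, 12.7 and 25.6 TPM in scWAT, and these overlapped. As a result Atp5g1 made up 51.7% ± 1.96 (SD, n = 4) of the summed subunit c TPM in wild-type heart and 12.3% ± 1.49 (n = 5) in wild-type scWAT, and Atp5g3 47.6% ± 1.93 and 85.4% ± 1.85. Atp5a1, the alpha subunit of the catalytic head, stood at 1275, 1544, 1702 and 1619 TPM in heart against 676, 679, 571, 581 and 586 TPM in scWAT (log2 difference 1.31, SE 0.14). Its partner Atp5b, the catalytic beta subunit, was the most abundant member in both tissues, at 1792 to 2559 TPM in heart and 1455 to 2037 TPM in scWAT, and these overlapped (log2 difference 0.41, SE 0.16, limma adjusted p = 0.0264). Atp5f1, subunit b of the stalk, stood at 476, 558, 546 and 564 TPM in heart and 245, 233, 191.5, 187 and 216 TPM in scWAT, with no overlap (1.32, SE 0.14).

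Among the other complex IV genes the largest difference was that of Cox5a, a matrix-side subunit. Cox5a stood at 853, 1073, 1125 and 1099 TPM in wild-type heart and at 325, 239, 182, 163 and 268 TPM in wild-type scWAT (log2 difference 2.17, SE 0.20, limma adjusted p = 6.14e-07). Cox7b, a small membrane subunit, stood at 521, 696, 730.2 and 662 TPM in heart and 313, 236, 197, 230.2 and 345 TPM in scWAT. The tissues did not overlap in either gene. Of the 9 complex III genes, 5 passed as higher in heart and none as lower, as deposited. Uqcrfs1, the Rieske iron-sulfur protein, stood at 350.4, 480.5, 499 and 507 TPM in heart and 195, 161, 137, 165 and 206 TPM in scWAT (log2 difference 1.40, SE 0.17). The core protein Uqcrc1 stood at 465, 550.4, 610.4 and 623 TPM in heart and 265, 241, 220.5, 206 and 260.2 TPM in scWAT (1.23), and the core protein Uqcrc2 at 360.5, 462, 464 and 480.5 TPM and 203, 192, 198, 156 and 183 TPM (1.24). Cytochrome c1, Cyc1, stood at 439, 546, 602 and 583 TPM in heart and 313, 243, 203, 163 and 258 TPM in scWAT (1.22). None of these 4 genes overlapped between the tissues. Of the small subunits, Uqcr10, Uqcr11, Uqcrh and Uqcrq differed by -0.04 to 0.37 as deposited and did not pass. After median-of-ratios scaling they differed by 1.42 to 1.83 and each was called higher in heart. Uqcrb, another small subunit, stood at 627, 777, 742 and 706 TPM in heart and 450.5, 395, 437, 405 and 455 TPM in scWAT, with no overlap, and passed (0.73, SE 0.13). The 4 complex II genes passed, with differences of 0.42 for Sdhc, 0.51 for Sdhd, 0.61 for Sdha and 0.79 for Sdhb. Cytochrome c, Cycs, stood at 77.0 to 90.6 TPM in heart and 31.3 to 48.7 TPM in scWAT (log2 difference 1.06, SE 0.17).

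Genes with related roles did not shift by the same amount. The 6 mitochondrially encoded subunits of complexes III to V were all higher in wild-type heart, with a median log2 difference of 2.57. Of 38 tested assembly factors of complexes II to V, 8 were higher and 18 lower, with a median of -0.35. Of 19 other mitochondrial proteins, such as Cs, Vdac1 and Tomm20, 5 were higher and 9 lower, with a median of -0.30. In this fit, with TPM as deposited, 8.12% of all tested genes were higher and 78.5% lower. Relative to the median of all genes, 28 of the 38 assembly factors and 18 of the 19 other proteins lay above it. The members' median of 0.61 lay above both of these lists, and all 3 medians lay above the -1.27 of all genes.

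The second question was whether the heart subunit genes differed with the genotype label. With all 8 hearts, none of the 47 genes passed an adjusted p under 0.05 in limma, in either direction, where 0.0501% of 11981 tested genes passed as higher and 0% as lower. An unadjusted p under 0.05 was reached by 3 members on the higher side, where 20.9% of all genes reached it, and by 2 on the lower, where 3.66% did. The groups did not overlap for 7 members that were higher in the hearts labelled knockout, where this held for 3.71% of all tested genes, and for 0 members that were lower, where it held for 0.634%. The 7 were Atp5l, Atp5j2, Uqcrh, Cox7a2l, Cox6b1, Cycs and Uqcr10. This count used TPM as deposited and was not repeated under another scaling. The median log2 difference was -0.01 over the members and 0.26 over all genes, and 39 of the 47 members lay below the median of all genes. After median-of-ratios scaling the members' median was -0.33 and that of all genes -0.02. With the mitochondrially encoded genes removed they were -0.19 and 0.11, and 0 members passed under either scaling.

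The general forms Cox6a1 and Cox8a had the largest positive differences. Cox6a1 stood at 168, 94.9, 163 and 155 TPM in the hearts labelled knockout of A25, A29, A30 and A31, against 66.7 to 111 TPM in wild-type heart (log2 difference 0.69, SE 0.23, limma adjusted p = 0.142). Cox8a stood at 257, 151, 235 and 241 TPM in the same order, against 111 to 183 TPM (0.51, SE 0.22, adjusted p = 0.187 in limma). For both genes A25, A30 and A31 lay above every wild-type heart and A29 lay among them. Atp5l, subunit g of the membrane part of ATP synthase, stood at 988, 901, 939.7 and 1031 TPM, above the wild-type range of 664 to 809 TPM in each library (0.33, SE 0.14, limma adjusted p = 0.179). Atp5j2, subunit f beside it, stood at 743, 646, 634 and 770.4 TPM against 481 to 624.5 TPM (0.33, SE 0.15, adjusted p = 0.206 in limma). In both genes A29 also lay above the wild-type range, and relative to the median of all genes their differences were below 0.1.

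On the lower side, Uqcrc1, a core protein of complex III, stood at 367, 588, 391 and 284 TPM in A25, A29, A30 and A31 against 465, 550.4, 610.4 and 623 TPM in wild-type heart (-0.50, SE 0.22, limma adjusted p = 0.189). Atp5a1 stood at 1008, 1649.8, 1075 and 880.3 TPM against 1275 to 1702 TPM (-0.45, SE 0.20, adjusted p = 0.203 in limma). Cox7a1 stood at 811, 1517, 789.7 and 704 TPM against 1146 to 1424 TPM (-0.49, SE 0.23, adjusted p = 0.213 in limma). In each of these 3 genes A25, A30 and A31 lay below every wild-type heart, and A29 lay within the wild-type range or, for Cox7a1, above it. Sdha, the flavoprotein subunit of complex II, stood at 274, 474, 347 and 282 TPM against 312, 501, 554 and 530.4 TPM (-0.46, SE 0.24, adjusted p = 0.244 in limma), with wild-type A5 as low as the lower hearts.

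**Figure D3:**
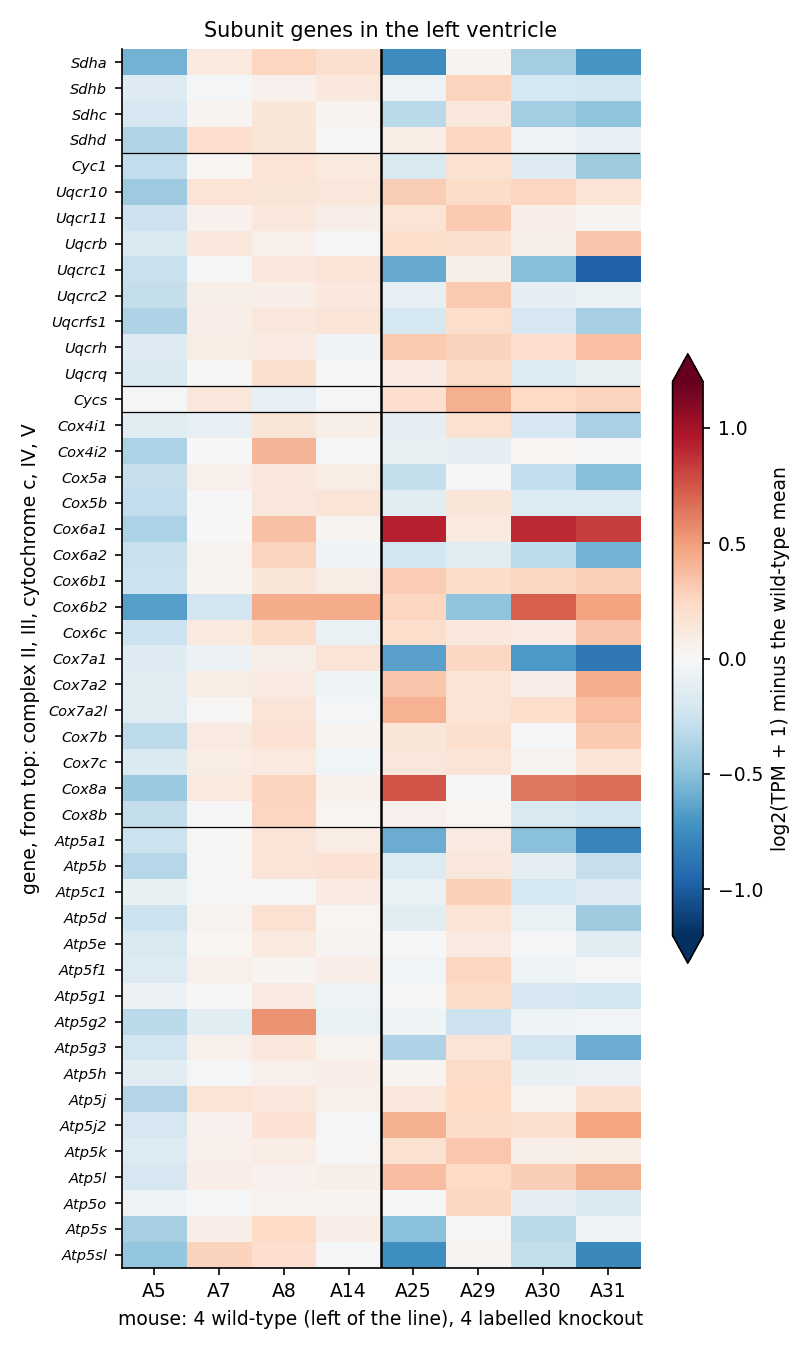
Each row is 1 of the 47 genes, grouped by complex, and each column a heart, with colour giving log2(TPM + 1) minus the mean of the 4 wild-type hearts. Columns A25, A30 and A31 share red cells at Cox6a1 and Cox8a and blue cells at Sdha, Uqcrc1, Cox7a1 and Atp5a1, which column A29 lacks, and wild-type A5 is blue in nearly every row.

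Without A29, 9 members passed the test in the heart. Cox6a1 (0.89, SE 0.17, limma adjusted p = 0.0031), Cox8a (0.68, SE 0.17, adjusted p = 0.0116) and Atp5l (0.36, SE 0.12, adjusted p = 0.0316) were higher, where 34.8% of 12081 genes were higher. Cox7a1 (-0.74, SE 0.12, limma adjusted p = 0.00121), Uqcrc1 (-0.70, adjusted p = 0.0064), Atp5a1 (-0.63), Sdha (-0.63), Sdhc (-0.41) and Atp5g3 (-0.40) were lower, where 4.16% of all genes were lower. The scaling moved this split. With median-of-ratios scaling and without A29, 0 members were higher and 24 lower, where 19.5% of all genes were higher and 20.9% lower. With the mitochondrially encoded genes removed, 2 were higher (Cox6a1 and Cox8a) and 26 lower, where 28.7% and 8.9% of all genes were. Atp5l then lay at -0.15 and 0.11 and did not pass. Relative to the median of all genes, the members' median was -0.44 as deposited, -0.52 after median-of-ratios scaling and -0.50 with the mitochondrially encoded genes removed. Under that measure, 44 of the 47 members lay below all genes as deposited, and the exceptions were Cox6a1, Cox8a and Cox6b2. The choice to name A29 apart was made after its values had been seen, and with 3 hearts labelled knockout the spread rests on few animals.

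The isoform ratios, which depend on scaling only through the pseudocount, were then compared in the heart. The log2 ratio of Cox6a2 to Cox6a1 averaged 3.90 ± 0.09 (SD, n = 4) in wild-type heart and 2.89 ± 0.50 (n = 4) in hearts labelled knockout. No heart labelled knockout overlapped the wild-type range of 3.82 to 4.01, and A29 came nearest at 3.63. The difference was -1.01 (exact 2-sided permutation p = 0.0286, the smallest that 4 against 4 allow, and 0.0893 after Benjamini-Hochberg adjustment over 10 ratios), and -1.25 without A29. As a share of the pair, Cox6a2 made up 93.4% to 94.3% in wild-type heart, 87.0%, 86.7% and 85.1% in A25, A30 and A31, and 92.6% in A29. The other muscle pairs showed the same split of the libraries. Cox7a1 was 74.2% to 78.8% of its pair in wild-type heart, 61.8%, 65.3% and 56.6% in A25, A30 and A31, and 77.2% in A29, where the log2 ratio differed by -0.74 (exact permutation p = 0.114, adjusted p = 0.143). Cox8b was 85.8% to 87.9% of its pair in wild-type heart, 80.0%, 78.7% and 77.9% in A25, A30 and A31, and 86.9% in A29 (log2 ratio -0.59, exact permutation p = 0.114, adjusted p = 0.143). Without A29 these ratios differed by -1.02 and -0.80, with no overlap and an exact permutation p of 0.0286, the smallest possible, and 0.0595 after adjustment.

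The levels of the 6 genes behind these shares were as follows. As deposited, Cox8b lay within the wild-type range, at 1027, 1005, 868 and 851 TPM in A25, A29, A30 and A31, and Cox8a was higher in A25, A30 and A31. This depended on the scaling: without A29, Cox8b differed by -0.63 and was called lower after median-of-ratios scaling (limma adjusted p = 0.0343), where Cox8a differed by 0.17 and was not called. With mitochondrially encoded genes removed, Cox8b was called lower (-0.37) and Cox8a higher (0.44). As deposited, Cox7a1 was lower in A25, A30 and A31, and Cox7a2, at 502, 448, 420.2 and 539 TPM, was above the wild-type range in A25, A29 and A31. For subunit 6A, Cox6a2 stood at 1121, 1188, 1060.0 and 887 TPM, below the wild-type range in A30 and A31, beside the higher Cox6a1. The hearts with the lower muscle share, A25, A30 and A31, were also those with fibroblast markers at 1182 to 2224 TPM and macrophage markers at 107 to 155 TPM, against 20.2 to 37.3 TPM of macrophage markers in the wild-type hearts and A29. Cardiac markers summed to 23493, 25135 and 18569 TPM in these 3 hearts and to 24948 to 34771 TPM in wild-type heart. The part of other cells in the isoform shares was not tested. Within subunit c, Atp5g1 made up 50.03% to 54.6% of it in wild-type heart and 58.2%, 52.8%, 52.2% and 58.0% in A25, A29, A30 and A31, above the wild-type range in A25 and A31. Cox4i2/Cox4i1 and Cox6b2/Cox6b1 differed by 0.08 and -0.02 between the heart groups (exact permutation p = 0.657 and 1), and each by 0.21 without A29.

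Assembly factors and other mitochondrial proteins were set beside the subunits in the heart. The 38 tested assembly factors had a median log2 difference of 0.23, near the 0.26 of all genes, and none passed. The 19 other mitochondrial proteins had a median of 0.09 and the 6 mitochondrially encoded subunits one of -0.18, and none passed in limma. Without A29, 10 assembly factors were higher and 2 lower (median 0.25), 4 of the other mitochondrial proteins were higher and 3 lower (median 0.07), and 2 of the mitochondrially encoded subunits were lower (median -0.23). In that fit 34.8% of all genes were higher and 4.16% lower, with a median of 0.39. With A29 included, complex II had the lowest median of the nuclear complexes, -0.17. Complex V followed at -0.04, complex III at 0.02 and complex IV at 0.14. These medians were -0.29, -0.10, -0.05 and 0.13 without A29, in the same order.

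In scWAT the same comparison gave no member past the threshold. Of 13682 tested genes, 0.0146% passed as higher and 0.00731% as lower in limma, and 0 of the 47 members did, while an unadjusted p under 0.05 was reached by 4 members on the higher side, where 8.11% of all genes reached it, and by 0 on the lower, where 7.52% did. The 4 are thus near the background share. The groups did not overlap for 2 members that were higher, Cox6b2 and Sdhb, where this held for 5.23% of all tested genes. The median log2 difference was -0.01 over the members and 0.03 over all genes. The 4 were Cox6a2, Cox6b2, Cox8b and Cox7a1.

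With the knockout label, Cox6a2 reached 54.6 (A24), 3.12 (A26) and 94.7 (A30) TPM, compared with 1.07 to 5.72 TPM in wild-type scWAT (log2 difference 3.21, SE 0.90, limma adjusted p = 0.217). A24 and A30 lay far above the rest and A26 lay within the wild-type range. These are the libraries with skeletal muscle markers at 5393 and 10739 TPM, and wild-type A7, the next in Cox6a2, was also the next in these markers at 1141 TPM. With the mean of the skeletal muscle markers as a covariate the log2 difference of Cox6a2 was 0.13 (limma adjusted p = 0.941). A24 and A30, both labelled knockout, held the highest marker sums, so this fit cannot separate the markers from the label. The part of muscle tissue in Cox6a2 was not tested. Without A26 and without the covariate, Cox6a2 passed the threshold (4.59, limma adjusted p = 0.00271). It was the only member to pass, where 0.923% of all genes passed as higher. Cox6a2 made up 5.37%, 0.418% and 10.2% of its pair in A24, A26 and A30.

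Cox8b measured 345 (A24), 482 (A26) and 497 (A30) TPM, compared with 139.8, 216, 108, 92.9 and 474 TPM in wild-type scWAT (1.35, SE 0.48, limma adjusted p = 0.253). Cox7a1 stood at 51.9, 76.9 and 125 TPM, against 65.6, 54.7, 14.7, 31.4 and 41.2 TPM (1.08, SE 0.46, adjusted p = 0.306 in limma). Both groups overlapped in each gene, through wild-type A14 for Cox8b and wild-type A5 and A7 for Cox7a1. In A26 the skeletal muscle markers lay below those of A24, A30 and wild-type A7 but above the other 4 wild-type libraries. There Cox8b was only slightly above the highest wild-type library (A14), at 482 against 474 TPM. Cox7a1 in A26, at 76.9 TPM, was above the wild-type maximum of 65.6 TPM in A5. With the skeletal muscle covariate the log2 differences were 1.36 for Cox8b and 0.71 for Cox7a1, with adjusted p of 0.386 and 0.661 in limma. Markers of thermogenic adipocytes (Ucp1, Cidea, Elovl3, Dio2, Ppargc1a and Cpt1b) summed to 81.0 (A24), 436 (A26) and 209 (A30) TPM, and in wild-type scWAT to 21.6 to 69.7 TPM, where A14 was highest. Ucp1 itself measured 8.85 (A24), 186 (A26) and 70.2 (A30) TPM, and wild-type scWAT reached at most 1.16 TPM. Elovl3 and Cpt1b also lay above every wild-type library in A24, A26 and A30, but the remaining genes did not all follow. Cidea, the largest value of the list in each scWAT library, lay above wild-type scWAT in A26 and A30 only. Dio2 did so in A26 only. Ppargc1a lay inside its wild-type range of 1.8 to 6.3 TPM in A24, A26 and A30. The part of either cell type in Cox8b and Cox7a1 was not tested, and the covariate cannot separate the muscle markers from the label.

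**Figure D4:**
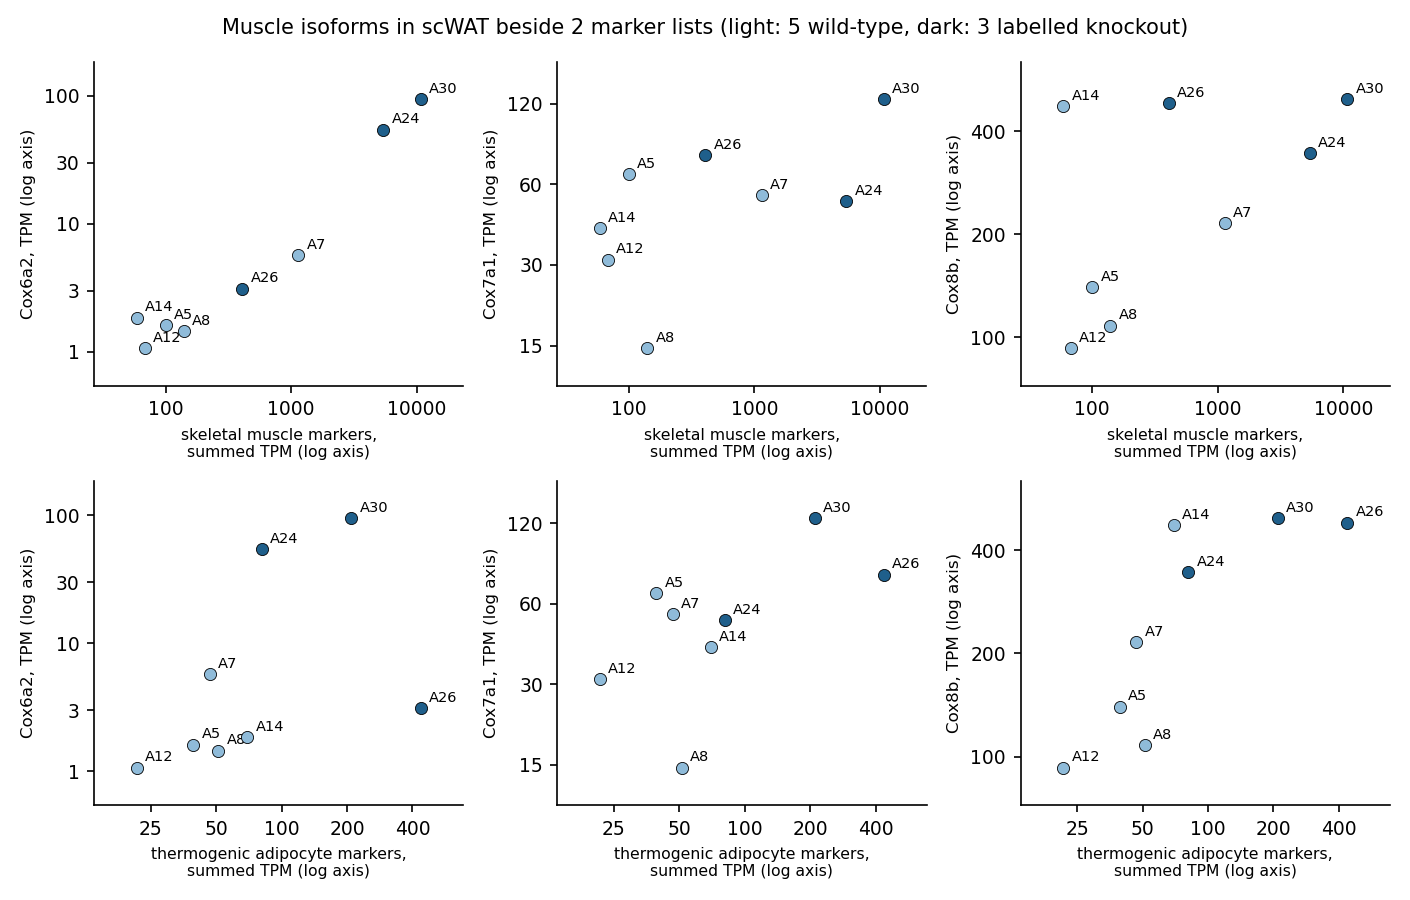
TPM of Cox6a2, Cox7a1 and Cox8b (vertical, log axes) in each of the 8 scWAT libraries against the summed TPM of skeletal muscle markers (upper row) and thermogenic adipocyte markers (lower row, log axes). Cox6a2 runs with the skeletal muscle markers, A24 and A30 being highest in both, and A26 is high in Cox8b and in the thermogenic markers but not in Cox6a2.

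Cox6b2 measured 7.87 (A24), 6.45 (A26) and 6.98 (A30) TPM, above the 1.53 to 4.63 TPM of wild-type scWAT in every library (0.87, SE 0.27, limma adjusted p = 0.228). Sdhb, the iron-sulfur subunit of complex II, stood at 315, 357 and 323 TPM against 277, 271, 283, 258 and 300.2 TPM (0.26, SE 0.12, adjusted p = 0.344 in limma). On the lower side, Cox4i2 stood at 6.69, 4.63 and 5.60 TPM against 12.8, 6.51, 7.10, 6.82 and 9.21 TPM (-0.49, SE 0.23, limma adjusted p = 0.34). Atp5g3 stood at 635, 475 and 618 TPM against 909, 775, 574, 716 and 776 TPM (-0.38, SE 0.19, adjusted p = 0.355 in limma). Cox8a and Atp5a1 differed by -0.20 and -0.16, with adjusted p of 0.538 and 0.556 in limma. The groups overlapped for each of these 4 genes on the lower side.

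The isoform ratios of scWAT had the same directions as these genes, and none passed adjustment. The log2 ratio of Cox6b2 to Cox6b1 was higher by 0.98 in the libraries labelled knockout (exact permutation p = 0.0179, the smallest that 5 against 3 allow, adjusted p = 0.0893), with no overlap. Those of Cox6a2/Cox6a1, Cox7a1/Cox7a2 and Cox8b/Cox8a were higher by 3.37, 1.11 and 1.55, and that of Cox4i2/Cox4i1 differed by -0.43. Each had an adjusted p of 0.0893 in the exact permutation test (0.0357 to 0.0536 before adjustment). The groups did not overlap for Cox4i2/Cox4i1 either, and overlapped for the muscle pairs. Within subunit c, Atp5g1 made up 17.1%, 15.9% and 18.5% in A24, A26 and A30 and 10.1% to 14.1% in wild-type scWAT, so the groups did not overlap. This share was not tested. Atp5g1 itself overlapped, at 140, 93.9 and 145 TPM against 82.0 to 133 TPM. Atp5g3 averaged 576 TPM with the knockout label and 750 TPM in wild-type scWAT.

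**Figure D5:**
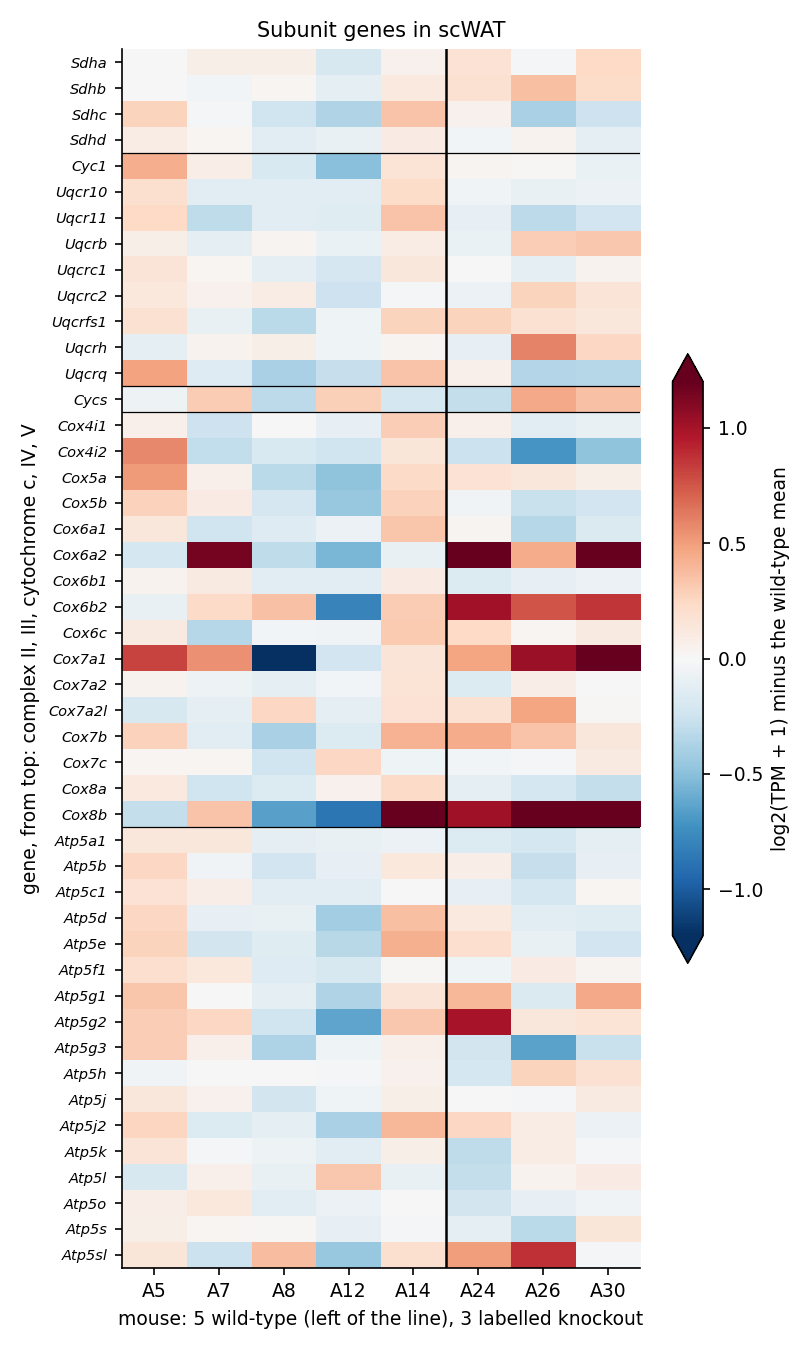
Each row is 1 of the 47 genes, grouped by complex, and each column a scWAT library, with colour giving log2(TPM + 1) minus the mean of the 5 wild-type libraries (colours end at the limits of the bar). The strong colours sit in the rows of Cox6a2, Cox6b2, Cox7a1 and Cox8b. Columns A5, A14 and A24 lie above all others in 13 of the 47 rows, but A24 is the lowest column in Atp5h, Atp5k, Atp5l and Atp5o.

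The scWAT members also split along a line that is not the genotype. The deposited tables of A5, A14 and A24 are named in another style than the other 5, with 2 wild-type mice and 1 labelled knockout in that set; what the style stands for is not given in the sources used here. With genotype as a term, 0 members passed for name style in limma, where 0.146% of all genes passed as higher and 0.0219% as lower, and 10 members were higher at an unadjusted p under 0.05, where 4.06% of all genes were. The 3 libraries lay above all 5 others in 13 of the 47 members, where this held for 3.25% of all genes. The members' median difference for name style was 0.20, against 0.04 over all genes, 0.13 over the 38 assembly factors and -0.01 over the 19 other mitochondrial proteins. Uqcrq, a small subunit of complex III, stood at 708, 642 and 529 TPM in A5, A14 and A24, and at 453, 385.6, 416, 395 and 398 TPM in A7, A8, A12, A26 and A30. Atp5e, the epsilon subunit of ATP synthase, stood at 658, 734 and 627 TPM in the same 3 and at 435 to 513 TPM in the other 5. With name style as a covariate the genotype differences of Cox6a2, Cox8b and Cox7a1 were 3.24, 1.38 and 1.09, and within the 5 libraries of the plain style they were 2.62, 1.91 and 1.70. In both fits no member passed.

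Whether a genotype difference itself differed between the tissues was tested with an interaction term over all 16 libraries. No member passed in limma, where 0.00867% of 11536 genes passed as higher in heart relative to scWAT and 0.052% as lower. At an unadjusted p under 0.05, 2 members were higher, where 17% of all genes were, and 4 lower, where 3.42% were. Cox6a2 had the largest term, -3.52 (SE 0.94, limma adjusted p = 0.0898), followed by Cox7a1 at -1.57, Cox8b at -1.43 and Atp5sl at -0.89. Cox6a1 and Cox8a had terms of 0.86 and 0.71, and Cox6b1 and Atp5l terms of 0.37 and 0.38. The skeletal muscle markers of scWAT A24 and A30, given above, move with the Cox6a2 term, and their part in it was not tested in this fit. Without A29, 2 members passed as higher and 5 as lower, where 22.4% and 2.27% of all genes did. Without scWAT A26, 0 members passed as higher and 1 as lower, where 0.0435% and 0.774% of all genes did.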

How the data were processed

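Each of the 16 libraries had a deposited table of TPM values per gene symbol, made by the authors and summing to the same total in every library, per the file headers and the values. Of the aligner, quantifier, annotation and build, none is named (not given in the sources used here). TPM keeps no depth, so no counting interval is given, and the number of mice limits the precision. Groups came from the genotype and tissue labels. The 47 members and the gene lists were chosen with earlier results of these data known.

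Each comparison was fitted with limma 3.58.1 in R 4.3.3 (moderated linear model with an intensity trend) on log2(TPM + 1), keeping genes that averaged 1 TPM or more in the compared libraries (in each tissue for the interaction), with Benjamini-Hochberg adjustment over all genes tested and a threshold of 0.05. Fold changes on this scale understate the change of low genes. The fits were tested on simulated data. Isoform ratios were compared with exact 2-sided permutation tests over libraries. Values per library were given for the isoform pairs, the subunit c genes and, in each comparison, up to 12 members per direction past the threshold by size of change. Where fewer than 4 passed in a direction, the 4 with the smallest unadjusted p were given; the name-style genes and members whose groups did not overlap were chosen after their values were seen. The 4 wild-type mice with both tissues pair the tissue comparison because the tissues come from the same animals. The correlation of their deviations between tissues was 0.0166, 0.0498, 0.144 and 0.0761. Alternatives were the pseudocount, the filter, median-of-ratios and quantile scaling, removal of mitochondrially encoded genes, covariates, a replicate block and leaving out each library. Promoter sequences and base composition came from a RefSeq table of build GRCm38.p6, which held 37 of the 47 genes.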

Additional observations from a re-analysis of the deposited data

Results flagged for a closer look

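Within groups of 4 or 5 libraries, 156 sets of values (the members' TPM and the isoform ratios) were searched for a library standing apart from its group by Dixon's criterion. The search marked 13 of them, 8.33%, where chance marks about 1 in 20 independent sets. The sets share libraries and are not independent, so the share cannot be read as an excess. Of the 13, 6 came from heart A29 among the 4 hearts labelled knockout. Cox7a1, the muscle form of subunit 7A, stood at 1517 TPM in A29 and at 704 to 811 TPM in the other 3, and Cox6a1 at 94.9 TPM against 155 to 168 TPM. Cox5b stood at 888 TPM in A29 against 717 to 730.2 TPM, Uqcrc2 at 547 TPM against 406 to 416 TPM, Atp5f1 at 642 TPM against 518 to 528 TPM, and Atp5g2 at 17.1 TPM against 19.8 to 20.0 TPM. Wild-type heart A5 was the low library in 3 sets: Atp5l at 664 TPM against 794 to 809 TPM, Uqcr10 at 382 TPM against 569 to 579 TPM, and Uqcrc2 at 360.5 TPM against 462 to 480.5 TPM. The same library had the highest share of mitochondrially encoded transcripts among the hearts, 60.6%.

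In wild-type scWAT, A7 stood apart in Cox6a2, at 5.72 TPM against 1.07 to 1.85 TPM, and in the Cox6a2/Cox6a1 log2 ratio, at -6.89 against -8.76 to -8.44. That library also had the most skeletal muscle marker transcripts of the wild-type scWAT libraries. Sdha was low in wild-type scWAT A12, at 265 TPM against 304 to 317 TPM. The Cox4i2/Cox4i1 log2 ratio was high in wild-type scWAT A5, at -6.41 against -7.10 to -6.96. The causes were not tested.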

How the results depend on the processing

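Of 417 values of the members' counts, medians and ratios under alternatives, 382 were labelled unchanged, 11 reversed, 12 moved and 12 lost the threshold. Unchanged meant within a fixed factor for counts and the same direction and side of the threshold for ratios. For relative medians it meant within 0.286 of the original, the pooled SD over libraries. That SD exceeds the genotype medians (scWAT -0.05, heart -0.27, interaction -0.21), so this label cannot show that they hold. The heart median became -0.055 with no filter. Of the 382, 5 relative medians near 0 changed sign: in scWAT (-0.05) they were 0.12 with quantile normalization, 0.02 without A24, 0.09 with the muscle covariate and 0.06 within the plain name style, and for the interaction (-0.21) 0.0019 with no filter. Of 774 values of single named genes, 739 kept direction and side, 25 passed the threshold, 1 lost it and 9 reversed. In scWAT, 1 member (Cox6a2) passed as higher in a fit that shared its spread over all libraries, and 0 to 1 with single libraries left out. In the heart, leaving out single libraries gave 0 to 3 members higher and 0 to 6 lower, the upper ends without A29. In combinations chosen after seeing the data, leaving out A29 gave 24 lower with median-of-ratios scaling, and 2 higher and 26 lower with mitochondrially encoded genes removed. The interaction gave 0 to 2 higher and 0 to 5 lower with single libraries left out. The members' median in heart against scWAT, relative to all genes, was 1.88, and became 1.41 with a pseudocount of 5 and 1.02 with no filter, which admits genes near 0.

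With the mouse as a replicate block, the tissue comparison gave 28 members higher and 3 lower as a fixed term and 30 and 3 as a random term. Exact sign-flip permutation over the 4 paired mice, which cannot go below p = 0.125, gave ratio differences of 12.07 for Cox6a2/Cox6a1, 5.05 for Cox7a1/Cox7a2, 5.33 for Cox8b/Cox8a and -0.99 for Cox6b2/Cox6b1. The ratios of low genes moved most. Cox6b2/Cox6b1 in the heart was 0.10 with a pseudocount of 0.25, 0.099 with mitochondrially encoded genes removed, and -0.18 to 0.21 with single libraries left out. Cox4i2/Cox4i1 ran from -0.021 to 0.21 in the heart with single libraries left out. Between tissues it likewise ran from -0.10 to 0.12, and was 0.0089 with a pseudocount of 0.25, and Cox6b2/Cox6b1 ran from -0.99 to -0.69 with single libraries left out, was -1.15 and -0.31 with pseudocounts of 0.25 and 5, and -1.22 with mitochondrially encoded genes removed.

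Directions of single genes turned with the scaling. Between tissues, Cox7a2l was 1.21 with median-of-ratios scaling, 0.76 with mitochondrially encoded genes removed and 1.05 with quantile normalization, and Cox6b2 was 0.026 and 0.11 with median-of-ratios and quantile scaling. In the heart, Atp5j2 was -0.030 with quantile normalization, and without A29 and with median-of-ratios scaling Atp5l and Atp5j2 were each -0.15. In scWAT, Cox8a was 0.013 with skeletal muscle markers as a covariate. The cause of these turns was not tested. Low values, such as those of Cox6b2 and Cox4i2, cannot be given a counting error because TPM holds no depth.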
